A study of Arabidopsis with 14 samples.

Results

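The MYB family of transcription factors was examined in mRNA-Seq libraries from whole Arabidopsis seedlings. Members were the rows whose gene name is MYB followed by a number, without the glucosinolate regulators MYB28, MYB29, MYB34, MYB51 and MYB122, and with an FPKM (fragments per kb of transcript scaled to the mapped fragments of the library) of at least 1 in at least 2 of the 14 libraries. Of 115 rows with such a name, 5 were the glucosinolate regulators, 40 stayed below the FPKM minimum and 70 were members, among 37980 rows in all. Seedlings were of the Col-0 background, 10 days old and grown under short days of 8 h light and 16 h dark. Of the groups, 3 with 2 libraries each came from seedlings treated with 150 mM NaCl: the line labelled AtC3H3 OX, the line labelled AtC3H26 OX, and wild type (WT). Untreated seedlings gave 2 libraries of each line and 2 sets of WT, set 1 and set 2, with 2 libraries each. The methods state for AtC3H3 OX and WT that RNA from 1, 2 and 4 h of NaCl was combined, so that the times cannot be separated. Treated seedlings were moved onto filter paper soaked in the NaCl medium, and the labels do not say that untreated seedlings were moved, so that the transfer and the NaCl cannot be told apart. AtC3H3 and AtC3H26 are genes of CCCH zinc-finger proteins. The transgene of AtC3H3 was driven by a modified cauliflower mosaic virus 35S promoter, which is active in most cells, and its protein carried an N-terminal hemagglutinin tag. The libraries of each label are not divided by independent transgenic line.

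MYB proteins bind DNA through imperfect repeats of a helix-turn-helix fold, and most of the plant family carries a pair of these repeats and is called R2R3-MYB. Sequence motifs outside the repeats divide R2R3-MYB proteins into numbered subgroups, and genes of a subgroup often act on the same pathway. In seedlings, members are known for control of cuticular wax, suberin, lignin, flavonols and anthocyanins, for epidermal cell fate, and for responses to abscisic acid, drought and salt. Many act as activators, whereas subgroup 4 acts as repressors of the phenylpropanoid pathway.

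The genes named in the labels did not have more transcript in the libraries of their lines. With NaCl, the level of AtC3H3 was 14.8 and 13.5 FPKM where the label is AtC3H3 OX, against 20.69 and 23.01 FPKM for WT. The level of AtC3H26 was 5.11 and 4.39 FPKM where the label is AtC3H26 OX, against 7.969 and 7.498 FPKM for WT. The paper selected its AtC3H3-overexpressing lines by quantitative RT-PCR, and the FPKM values here do not show that higher level. The reason for this difference was not tested. Because of these FPKM values, the lines are named as labelled, and no direction of the transgene is assumed. Relative depth, estimated from the steps between low FPKM values, was between 0.638 and 1.07 times that of replicate 2 of WT with NaCl. Pearson's r between replicates was 0.977 to 0.982, on log2(FPKM + 1) of the 21083 genes with at least 1 FPKM in 2 or more libraries. Of 5 salt and abscisic acid markers tested, 5 were higher with NaCl, with sums of 2429 to 3303 FPKM in NaCl libraries and 244 to 383 FPKM in untreated libraries. Summed root markers overlapped between treatments, at 1461 to 1724 FPKM with NaCl and 1348 to 1873 FPKM untreated, but of 5 root markers tested 3 (COBL9, SCR and SHR) were lower with NaCl and 0 higher, with a median log2 fold change of -0.51. Summed green shoot markers were lower with NaCl (12760 to 13320 FPKM, against 14550 to 16240 FPKM untreated), as were summed guard cell markers (104.2 to 130.3 FPKM, against 162.5 to 210.1 FPKM untreated). Their part in the results was not tested. In bulk seedling RNA, fewer cells of a type and less RNA per cell cannot be told apart.

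Most members were of low abundance. Averaged over the 14 libraries, 12 members lay below 1 FPKM, 47 between 1 and 10 FPKM and 11 at 10 FPKM or more. The highest mean was that of MYB73 (45.3 FPKM), before MYB59 (34.3 FPKM), MYB96 (33.6 FPKM), MYB3 (32.3 FPKM) and MYB48 (14.99 FPKM). The FPKM of all members summed to between 425 and 506 in NaCl libraries, against 331 to 428 in untreated libraries. In all, 40 members reached 1 FPKM in every library, 9 reached it in NaCl libraries only and 4 in untreated libraries only. Of the 40 named rows below the minimum, 10 were listed at 0 in every library. Just outside the minimum were MYB53, MYB37 and MYB27, with a second-highest value of 0.863, 0.864 and 0.922 FPKM. Just inside it were MYB106, MYB79 and MYB90, at 1.026, 1.058 and 1.083 FPKM. Reads of 10 members may include those of an overlapping annotated gene, since the strand setting of the counting is not given in the sources used here. These are MYB1, MYB9, MYB10, MYB45, MYB58, MYB65, MYB73, MYB92, MYB95 and MYB106.

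The first comparison asked which members differ between NaCl and untreated seedlings, over all lines. With NaCl, 35 members were higher and 19 lower, and 16 did not pass the test (limma on log2(FPKM + 1), 6 libraries against 8 with the line as a term, Benjamini-Hochberg adjusted p under 0.05). Among all 21083 genes tested, 34.4% were higher and 35.2% lower. The change exceeded 2-fold on this scale in 14 of the members that rose and in 2 of those that fell, against 8.09% and 3.88% of all genes. Every NaCl library lay above every untreated library for 28 members and below it for 8, against 22.7% and 20.3% of all genes. The median log2 fold change was 0.26 over the 70 members and -0.01 over all genes. Because a member can enter through the treatment in which it is high, the 57 members that reached 1 FPKM in both treatments were also counted, and 27 of them rose and 16 fell. Of these 57, 9 rose and 2 fell by over 2-fold, 20 lay above and 6 below without overlap, and the median log2 fold change was 0.17. The shares and the median of all genes given above were not limited in this way, and none were computed under this condition. With untreated WT set 1 alone, 4 calls were lost (MYB36, MYB46, MYB66 and MYB92) and 5 gained (MYB3, MYB6, MYB20, MYB30 and MYB77). With set 2 alone 1 was lost (MYB67) and 1 gained (MYB73). No called member changed sign in either. The log2(FPKM + 1) scale makes differences near 1 FPKM smaller than the ratios of their FPKM.

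**Figure D1:**
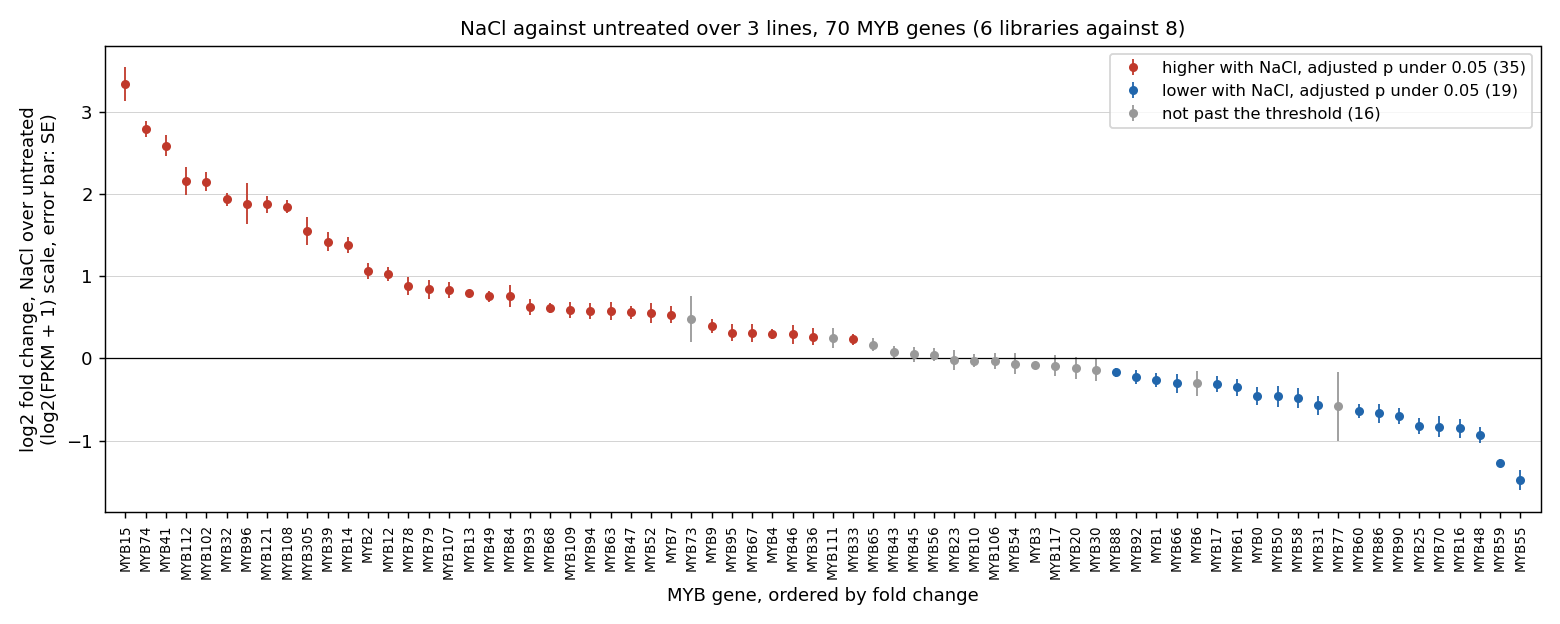
Log2 fold change of each of the 70 MYB genes, NaCl over untreated, on the log2(FPKM + 1) scale (y axis), ordered by fold change along the x axis. Points are limma estimates from 6 NaCl and 8 untreated libraries, bars are standard errors, and colours mark the 35 higher, 19 lower and 16 other genes. MYB15 stands highest at 3.34 and MYB55 lowest at -1.48, and the widest bar is that of MYB77.

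Subgroup 11, which holds regulators of drought and salt responses and of suberin, had 4 members, all higher with NaCl, of which MYB41 and MYB102 passed the FPKM minimum only through NaCl libraries. MYB74 (AT4G05100), a gene known to be induced by salt, had 13.8 to 20.6 FPKM with NaCl (median 19.5), against 1.39 to 2.34 FPKM untreated (median 1.67). Its mean was 10.1-fold higher with NaCl, and the log2 fold change was 2.79 (SE 0.0940, adjusted p = 1.4e-11 by limma). MYB41 (AT4G28110), an activator of suberin synthesis, had 5.2 to 9.71 FPKM with NaCl (median 8.15), against 0.102 to 0.696 FPKM untreated (median 0.515). In none of the 8 untreated libraries did it reach 1 FPKM, and its log2 fold change was 2.59 (SE 0.125). MYB102 (AT4G21440), known for responses to wounding and osmotic stress, had 2.81 to 6.0 FPKM with NaCl, against 0.0795 to 0.575 FPKM untreated, a log2 fold change of 2.15 (SE 0.117). MYB49 (AT5G54230) changed least of the subgroup, with 6.03 to 7.79 FPKM with NaCl and 3.28 to 4.28 FPKM untreated, a log2 fold change of 0.75 (SE 0.0648). All NaCl libraries lay above all untreated libraries in each of the 4 genes.

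Further members with a known role in suberin were looked at one by one, without a list of such members. MYB39 (AT4G17785), an activator of suberin in the root endodermis, had 2.37 to 4.12 FPKM with NaCl, against 0.492 to 1.13 FPKM untreated, a log2 fold change of 1.42 (SE 0.114). In subgroup 10, MYB107, an activator of suberin in the seed coat, rose by 0.83 and MYB9, with the same role, by 0.39 on the log2 scale, and MYB9 reached 1 FPKM in NaCl libraries only. In subgroup 24, MYB93 rose to 3.19 to 4.87 FPKM with NaCl, against 1.94 to 3.06 FPKM untreated. MYB92, of the same subgroup, was lower with NaCl (4.29 to 5.26 FPKM, against 4.95 to 7.20 FPKM untreated), its groups overlapped, and its log2 fold change was -0.23 (adjusted p = 0.026 by limma). MYB92 is among the calls lost with untreated WT set 1 alone. Of 12 genes listed for suberin synthesis and export, 10 were tested, 9 rose and 1 fell, against 34.4% and 35.2% of all genes. Their median log2 fold change was 0.92. By line, 9 of 10 were higher in AtC3H3 OX (median 1.44), 9 in AtC3H26 OX (median 0.70) and 5 in WT (median 0.63). Of all genes, 31.4%, 29.2% and 25.6% were higher in these lines, and the WT test took both untreated sets together. Between AtC3H26 OX and WT with NaCl, 3 of the 10 were lower and 0 higher (median -0.27), against 4.54% and 2.55% of all genes. Between AtC3H3 OX and WT, 0 of the 10 genes were called with NaCl (median 0.13) or untreated (median -0.47). Over all lines, GPAT7, an acyltransferase, rose most of these (2.29), followed by the transporter ABCG6 (1.45) and GPAT5 (1.22), and CYP86A1, a fatty acid hydroxylase, fell by 0.28. The genes of the list summed to between 145 and 190 FPKM with NaCl and between 94.9 and 116 FPKM untreated.

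**Figure D2:**
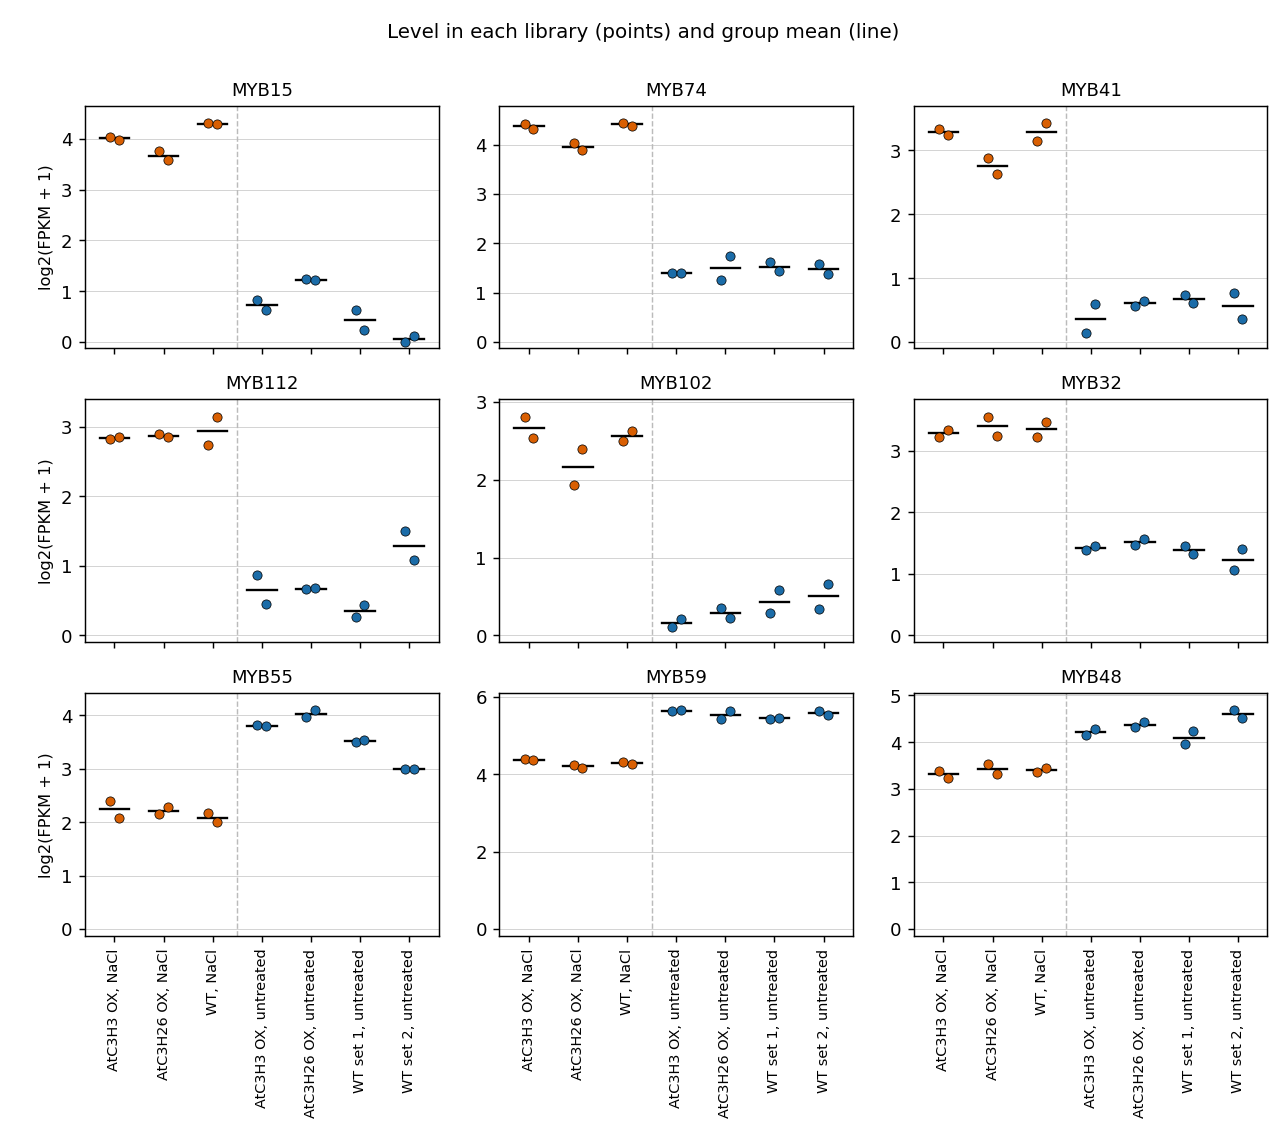
Level of 9 MYB genes in each library, as log2(FPKM + 1) (y axis), by group (x axis, NaCl groups to the left of the dashed line). Points are single libraries, 2 for each group, and lines are group means. In MYB15, MYB74, MYB41, MYB112, MYB102 and MYB32 all 6 NaCl libraries lie above all 8 untreated libraries, and in MYB55, MYB59 and MYB48 below them.

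All members of subgroups 2 and 20, both known for stress responses, were also higher, but MYB2, MYB78 and MYB108 of subgroup 20 passed the FPKM minimum only through NaCl libraries. MYB15 (AT3G23250), a repressor of cold-response CBF genes and an activator of defence lignin, had the largest log2 fold change of the family. It had 15.5 and 14.8 FPKM in AtC3H3 OX, 12.52 and 10.96 FPKM in AtC3H26 OX and 18.8 and 18.7 FPKM in WT with NaCl. The untreated libraries had 0.775 and 0.539 FPKM in AtC3H3 OX, 1.36 and 1.33 FPKM in AtC3H26 OX, 0.549 and 0.177 FPKM in set 1 of WT, with 0 and 0.0866 FPKM in set 2. The highest untreated library, of AtC3H26 OX, was far below the lowest NaCl library, which was of the same line. The log2 fold change over all lines was 3.34 (SE 0.205, adjusted p = 5.8e-09 by limma). The related MYB14 (AT2G31180), known in freezing tolerance, had 4.14 to 6.37 FPKM with NaCl, against 0.700 to 1.98 FPKM untreated, a log2 fold change of 1.38 (SE 0.10). MYB13 (AT1G06180) was the only one of the subgroup that was abundant without NaCl, at 8.92 to 11.5 FPKM, and it reached 17.5 to 21.2 FPKM with NaCl, a log2 fold change of 0.80 (SE 0.0409). In each of the 3 genes the groups did not overlap.

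In subgroup 20, MYB112 (AT1G48000), known for anthocyanin formation under salt and high light, had 5.66 to 7.83 FPKM with NaCl, against 0.207 to 1.83 FPKM untreated. Its highest untreated values, 1.83 and 1.12 FPKM, were those of WT set 2, and the log2 fold change was 2.16 (SE 0.169). MYB108 (AT3G06490), known for responses to a fungal pathogen and for stamen maturation, had 4.53 to 6.14 FPKM with NaCl, against 0.510 to 0.904 FPKM untreated, a log2 fold change of 1.85 (SE 0.0771). MYB2 (AT2G47190), an early regulator of abscisic acid and salt responses, had 1.37 to 1.92 FPKM with NaCl and 0.0559 to 0.710 FPKM untreated. MYB78 (AT5G49620) had 1.38 to 2.24 FPKM with NaCl and 0.253 to 0.932 FPKM untreated. The log2 fold change was 1.07 for MYB2 (SE 0.0975) and 0.88 for MYB78 (SE 0.112), and neither they nor MYB108 reached 1 FPKM in an untreated library. The 4 genes differed in level with NaCl, MYB112 and MYB108 being above all values of MYB2 and MYB78.

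Subgroup 1, which holds activators of cuticular wax synthesis and the guard cell gene MYB60, was split. MYB96 (AT5G62470), an activator of wax synthesis under drought and abscisic acid, had 45.6 to 65.8 FPKM with NaCl (median 61.0), against 6.51 to 24.4 FPKM untreated (median 17.3). It was the most abundant of the members that rose, and the mean was 3.66-fold higher with NaCl. The log2 fold change was 1.88 (SE 0.253, adjusted p = 1.6e-05 by limma), and the untreated libraries spread widely, with the lowest values in WT set 2. MYB94 (AT3G47600), which acts with MYB96, rose to 8.42 to 11.6 FPKM with NaCl, against 5.17 to 7.82 FPKM untreated, a log2 fold change of 0.58 (SE 0.0964). MYB30 (AT3G28910), an activator of hypersensitive cell death and of wax genes, had 12.3 to 15.1 FPKM with NaCl and 8.98 to 17.8 FPKM untreated, and the test was not passed (log2 fold change -0.14, 95% interval -0.44 to 0.16). MYB31 (AT1G74650) was lower with NaCl (1.50 to 2.57 FPKM, against 1.99 to 4.41 FPKM untreated), with groups that overlapped and a log2 fold change of -0.57 (SE 0.11). MYB60 (AT1G08810), which promotes stomatal opening, had 5.80 to 8.16 FPKM with NaCl, against 8.47 to 15.2 FPKM untreated, and fell by 0.64 on the log2 scale (SE 0.0825). The summed guard cell markers were lower in the same libraries. Of 5 guard cell markers, GC1 and KAT1 fell, FAMA and GORK rose and SLAC1 did not pass the test.

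The wax genes that MYB96, MYB94 and MYB30 are known to activate were counted from a list of 11. Of the 10 tested, 9 were higher and 1 was lower with NaCl, against 34.4% and 35.2% of all genes. The median log2 fold change was 0.87. KCS2 and CER6, elongases of very long chain fatty acids, rose by 1.97 and 1.39 on the log2 scale. CER2 rose by 1.78, and CER1 and CER3, which form alkanes, by 0.77 and 1.22. CER4, a reductase that forms primary alcohols, fell by 0.59. The list summed to between 747 and 942 FPKM with NaCl, against 375.5 to 430.3 FPKM untreated, without overlap.

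**Figure D3:**
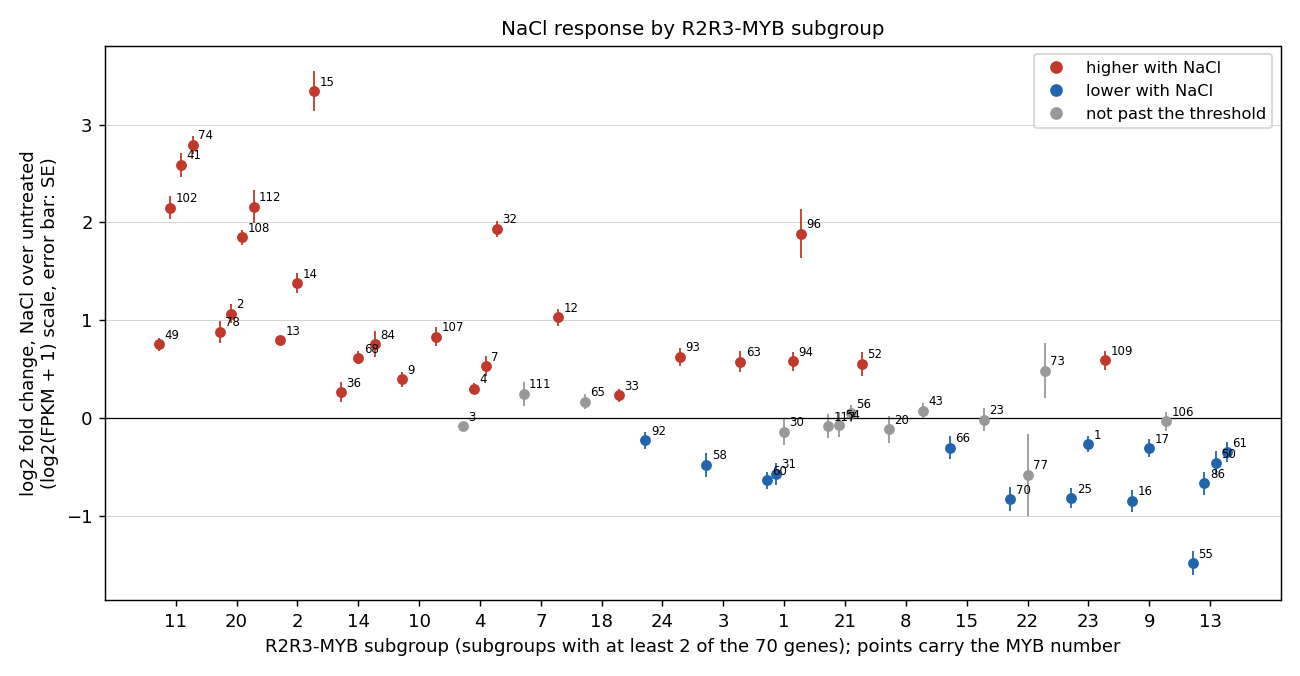
Log2 fold change, NaCl over untreated, on the log2(FPKM + 1) scale (y axis), by R2R3-MYB subgroup (x axis), for the 18 subgroups with at least 2 of the 70 genes. Points are limma estimates labelled with the MYB number, bars are standard errors and colours mark genes higher, lower or not past the threshold. All members of subgroups 11, 20, 2, 14 and 10 were higher and all 4 of subgroup 13 lower, and 4 subgroups held members in both directions.

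Among the regulators of phenylpropanoid synthesis, the repressors of subgroup 4 were higher or did not pass the test. MYB32 (AT4G34990) had 8.31 to 10.7 FPKM with NaCl (median 8.81), against 1.082 to 1.98 FPKM untreated (median 1.7), a log2 fold change of 1.93 (SE 0.0802, adjusted p = 1.1e-10 by limma). It was the only gene of the subgroup past 2-fold. MYB7 rose by 0.53 and MYB4, which represses the cinnamate hydroxylase gene, by 0.30 on the log2 scale, and in both the groups did not overlap. MYB3 (AT1G22640), the most abundant of the subgroup, had 26.6 to 37.5 FPKM with NaCl and 28.4 to 41.1 FPKM untreated (log2 fold change -0.08, adjusted p = 0.058 by limma). With quantile normalization its adjusted p was 6.4e-05, within a range of 6.4e-05 to 0.14 over the 22 alternatives. In subgroup 3, known for lignin, MYB63 rose by 0.58 and MYB58 was lower by the test (log2 fold change -0.48), at levels under 1 FPKM in all NaCl libraries. MYB58 thus passed the FPKM minimum only through untreated libraries. MYB20 and MYB43 of subgroup 8, also known for lignin and phenylalanine supply, did not pass the test.

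The flavonol activator MYB12 (AT2G47460, subgroup 7) had 6.27 to 8.07 FPKM with NaCl, against 1.82 to 4.04 FPKM untreated, a log2 fold change of 1.03 (SE 0.0871). MYB111 (AT5G49330), of the same subgroup and role, had 0.322 to 1.33 FPKM with NaCl and 0.482 to 0.731 FPKM untreated and did not pass the test (log2 fold change 0.25, adjusted p = 0.092 by limma). The lowest of its 6 NaCl values was that of replicate 1 of AtC3H3 OX, and without that library the adjusted p was 0.0051, within a range of 0.0051 to 0.21 over 22 alternatives. Of 5 flavonol synthesis genes, CHI (chalcone isomerase) was higher with NaCl (log2 fold change 0.70), CHS (chalcone synthase) was lower (-0.58), and F3H, F3primeH (flavonoid 3-prime hydroxylase) and FLS1 (flavonol synthase) did not pass the test. MYB90 (AT1G66390, subgroup 6), an activator of anthocyanin synthesis, had 0.0638 to 0.310 FPKM with NaCl, against 0.656 to 1.30 FPKM untreated, without overlap. It passed the FPKM minimum only through the untreated libraries in which it is high. Its log2 fold change was -0.70 (SE 0.0973), and it shares near-identical sequence with MYB113 and MYB114, so that its reads are uncertain at this level. Of 4 late anthocyanin genes, 3 were tested, DFR and LDOX fell (log2 fold changes -0.50 and -0.82) and UGT75C1 did not pass the test. Of the partners that bind MYB proteins, the bHLH gene EGL3 and the WD40 gene TTG1 fell by 0.49 and 0.27 on the log2 scale, GL3 did not pass the test and TT8 was below the FPKM minimum.

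Subgroup 13 was the only subgroup of at least 2 members in which every member was lower with NaCl, and 1 of its 4, MYB86, reached 1 FPKM in untreated libraries only. MYB55 (AT4G01680) had the lowest fold change of the family, with 2.999 to 4.26 FPKM with NaCl (median 3.46), against 6.92 to 16.0 FPKM untreated (median 11.7). The groups did not overlap, and the log2 fold change was -1.48 (SE 0.122, adjusted p = 1.2e-07 by limma). MYB86 (AT5G26660) had 0.542 to 0.992 FPKM with NaCl, against 1.19 to 3.16 FPKM untreated, and fell by 0.67 on the log2 scale (SE 0.117). MYB61, known for stomatal closure and xylem, and MYB50 were near 1 FPKM, overlapped between the treatments and had log2 fold changes of -0.35 for MYB61 and -0.46 for MYB50.

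Outside the numbered subgroups, MYB59 and MYB48, a closely related pair, fell in a similar range. MYB59 (AT5G59780), known for potassium and nitrate transport in roots, had 17.0 to 19.9 FPKM with NaCl (median 18.6), against 41.9 to 49.3 FPKM untreated (median 47.0). The mean was 2.47-fold lower with NaCl, and the log2 fold change was -1.27 (SE 0.0448, adjusted p = 2.3e-11 by limma). MYB48 (AT3G46130) had 8.44 to 10.52 FPKM with NaCl, against 14.5 to 24.6 FPKM untreated, a log2 fold change of -0.93 (SE 0.0960). Both were among the 5 members of highest mean level. No untreated library of either gene reached down to the NaCl libraries.

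MYB16 (AT5G15310, subgroup 9), which promotes cuticle formation and cell outgrowth, had 4.995 to 9.21 FPKM with NaCl, against 7.80 to 14.99 FPKM untreated, and fell by 0.85 on the log2 scale (SE 0.116). The groups overlapped, since NaCl libraries of AtC3H3 OX (9.21 and 8.53 FPKM) exceeded replicate 2 of untreated WT set 2 (7.80 FPKM). MYB17 of the same subgroup was lower (log2 fold change -0.31) and MYB106 did not pass the test. MYB0 (GLABRA1), which starts trichomes, and MYB66 (WEREWOLF), which sets the hairless fate of root cells, had log2 fold changes of -0.46 and -0.30, with overlapping groups. MYB23, which acts with them, did not pass the test. Of 6 green shoot markers, 5 were also lower with NaCl, and the median log2 fold change of the 6 was -0.44.

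The 3 members of subgroup 14 rose. MYB68 (AT5G65790), known in roots, had 6.05 to 8.03 FPKM with NaCl, against 3.65 to 5.0 FPKM untreated, a log2 fold change of 0.61 (SE 0.0659). MYB84 rose by 0.75, with overlapping groups. MYB36 (AT5G57620), the regulator of the Casparian strip, had 3.78 to 5.57 FPKM with NaCl and 2.93 to 4.71 FPKM untreated, a log2 fold change of 0.26 (adjusted p = 0.034 by limma).

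Several further members without a subgroup rose. MYB121 (AT3G30210) had 1.84 to 4.31 FPKM with NaCl, against at most 0.103 FPKM untreated, and was listed at 0 in 2 of the 8 untreated libraries. Its log2 fold change was 1.88 (SE 0.10, adjusted p = 2.2e-09 by limma), and it passed the FPKM minimum only through NaCl libraries. MYB305 (AT3G24310) had 10.4 to 12.8 FPKM with NaCl, against 1.83 to 7.73 FPKM untreated, a log2 fold change of 1.55 (SE 0.170). Its untreated values were highest in WT set 2 (7.73 and 5.34 FPKM). MYB79 had 0.352 to 1.42 FPKM with NaCl, against at most 0.0892 FPKM untreated, and it too passed the minimum only through NaCl libraries.

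Subgroups 18, 21, 22 and 23 showed smaller or mixed differences. MYB33 (AT5G06100, subgroup 18), which acts in gibberellin responses and is a target of miR159, had 5.89 to 7.64 FPKM with NaCl and 4.79 to 6.51 FPKM untreated. Its log2 fold change was 0.23 (adjusted p = 0.0073 by limma), and the call was lost with a common upper quartile (adjusted p = 0.089, within a range of 0.0018 to 0.089 over 22 alternatives). MYB65, its closest relative, had a log2 fold change of 0.17 and did not pass the test. In subgroup 21, MYB52 was higher by the test (0.55) and MYB54, MYB56 and MYB117 did not pass it. In subgroup 23, MYB109 rose by 0.59, and MYB25 (AT2G39880) fell to 0.751 to 1.24 FPKM with NaCl, against 2.01 to 3.41 FPKM untreated, a log2 fold change of -0.82 (SE 0.0989). Of the 16 members that did not pass the test, 12 had a 95% interval within 0.5 of 0 on the log2 scale, and the widest intervals were those of MYB77 (-1.49 to 0.33) and MYB73 (-0.12 to 1.09).

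MYB77 and MYB73 belong to subgroup 22, relatives of MYB44 that are known for auxin and abscisic acid responses. With NaCl, MYB73 (AT4G37260) had 54.1 and 57.8 FPKM in AtC3H3 OX, 39.9 and 34.0 FPKM in AtC3H26 OX and 56.9 and 59.1 FPKM in WT. Untreated, it had 59.7 and 56.6 FPKM in AtC3H3 OX and 19.7 and 21.1 FPKM in AtC3H26 OX, while set 1 of WT had 68.9 and 66.8 FPKM and set 2 had 21.2 and 19.01 FPKM. The untreated libraries thus lay at 2 levels, with AtC3H3 OX and WT set 1 high and AtC3H26 OX and WT set 2 low. MYB77 (AT3G50060) had 5.40 and 5.57 FPKM in AtC3H3 OX, 3.59 and 4.71 FPKM in AtC3H26 OX and 7.74 and 6.48 FPKM in WT with NaCl. Untreated, it had 18.8 and 17.3 FPKM in AtC3H3 OX and 4.60 and 5.25 FPKM in AtC3H26 OX, while set 1 of WT had 19.6 and 20.1 FPKM and set 2 had 3.45 and 2.17 FPKM. The same untreated libraries were high and low as for MYB73. Over all lines the log2 fold change was 0.48 for MYB73 (adjusted p = 0.14 by limma) and -0.58 for MYB77 (adjusted p = 0.24). Against set 1 alone, MYB77 was lower with NaCl in WT (log2 fold change -1.36, SE 0.0915), and against set 2 alone it was higher (1.11, SE 0.188). MYB73 likewise was lower against set 1 alone (-0.22, SE 0.0412) and higher against set 2 alone (1.49, SE 0.0763). The third gene, MYB70 (AT2G23290), a repressor, had 3.52 to 5.38 FPKM with NaCl, against 6.59 to 13.1 FPKM untreated, and fell by 0.83 on the log2 scale (SE 0.124). MYB44 itself is listed under another name and is not a member. It had 72.7 to 97.1 FPKM with NaCl and 13.9 to 34.1 FPKM untreated (log2 fold change 1.90).

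**Figure D4:**
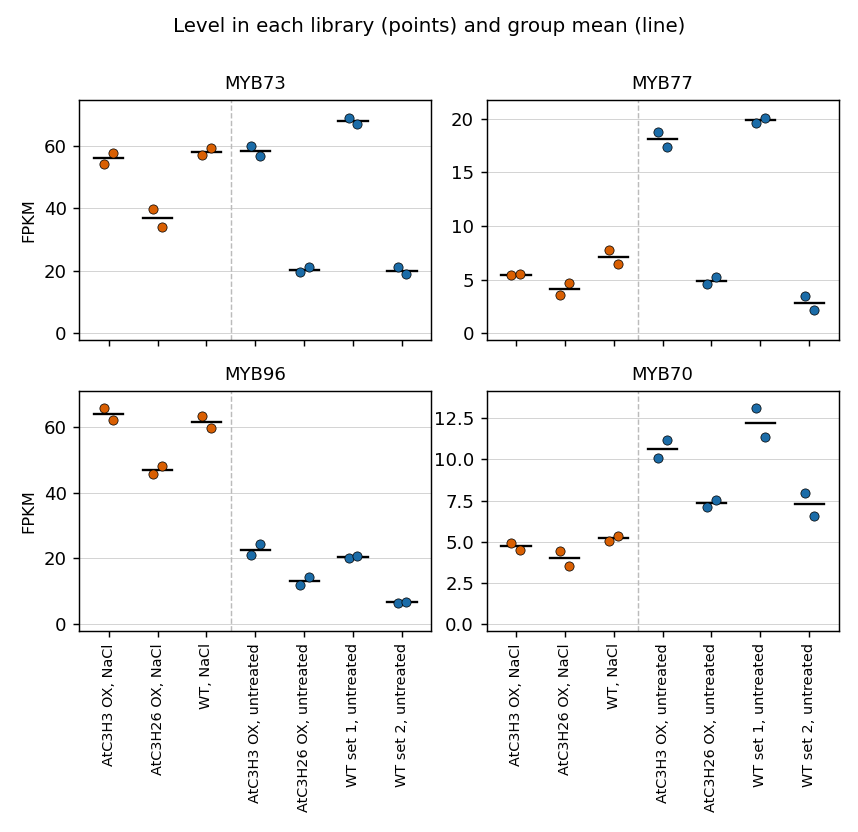
FPKM of MYB73, MYB77, MYB96 and MYB70 in each library (y axis, from 0), by group (x axis, NaCl groups to the left of the dashed line). Points are single libraries, 2 for each group, and lines are group means. Untreated AtC3H3 OX and WT set 1 lie above untreated AtC3H26 OX and WT set 2 in all 4 genes, and MYB96 is the gene whose NaCl libraries all lie above its untreated ones.

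The NaCl response was then taken within each line, in 3 comparisons that share no libraries. In AtC3H3 OX, 30 members were higher and 11 lower of 63 tested, against 31.4% and 29.9% of all genes (2 libraries against 2). Without replicate 1 of AtC3H3 OX with NaCl, 25 members were called in place of 41. In AtC3H26 OX, 27 were higher and 13 lower of 63 tested, against 29.2% and 26.4% of all genes, and without replicate 1 of AtC3H26 OX with NaCl 24 were called in place of 40. In WT, 27 were higher and 11 lower of 65 tested, against 25.6% and 25.5% of all genes (2 libraries against 4). Without replicate 1 or replicate 2 of WT with NaCl, 16 and 19 were called in place of 38. Of the 57 members that reached 1 FPKM in both treatments, 23 were higher and 11 lower of 55 tested in AtC3H3 OX. These counts were 19 and 11 of 53 in AtC3H26 OX, and 21 and 10 of 56 in WT. The shares of all genes were not limited in this way. In AtC3H3 OX, the split over all genes was 6275 higher and 5974 lower, and it became 5136 and 7464 with a common upper quartile, whereas the members were 30 and 15.

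In all 3 lines, 20 members were called higher and 7 lower, and 0 were called in opposite directions, of 58 tested in each line. Of all genes tested in each line, 20.9% were called higher and 17.4% lower in all 3. The 20 include all genes of subgroups 2, 11 and 20 together with MYB12, MYB32, MYB39, MYB47, MYB68, MYB96, MYB107, MYB121 and MYB305. Among them, MYB2, MYB41, MYB78, MYB102, MYB108 and MYB121 passed the FPKM minimum only through the NaCl libraries in which they are high. The 7 were MYB16, MYB25, MYB48, MYB55, MYB59, MYB60 and MYB70. MYB74 had a log2 fold change of 2.98 in AtC3H3 OX (SE 0.0855), 2.46 in AtC3H26 OX (SE 0.175) and 2.90 in WT (SE 0.103). MYB59 had -1.26 in AtC3H3 OX (SE 0.0440), -1.33 in AtC3H26 OX (SE 0.0844) and -1.22 in WT (SE 0.0778), and the difference between AtC3H26 OX and WT was -0.11 (95% interval -0.39 to 0.17). MYB30 and MYB6 were called lower in AtC3H3 OX and AtC3H26 OX and not in WT, where their log2 fold changes were 0.07 and -0.05. In WT the sign for MYB30 depended on the untreated set, at -0.32 against set 1 alone and 0.47 against set 2 alone, and that for MYB6 likewise, at -0.48 and 0.37.

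**Figure D5:**
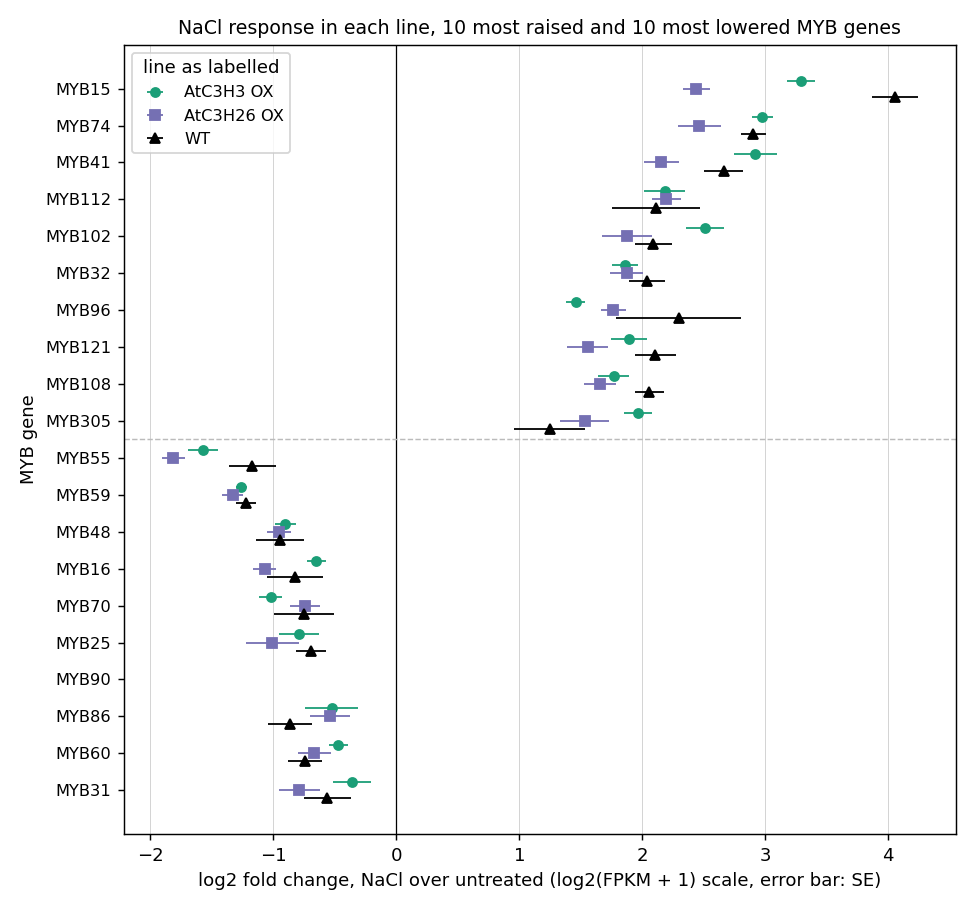
Log2 fold change, NaCl over untreated, on the log2(FPKM + 1) scale (x axis), for the 10 MYB genes with the largest rise and the 10 with the largest fall over all lines (y axis). Circles are AtC3H3 OX and squares AtC3H26 OX (2 libraries against 2 each), triangles are WT (2 against 4), and bars are standard errors. All points of the upper 10 genes lie above 0 and all points of the lower 10 below 0. MYB90 has no points because it was below the FPKM minimum in each line taken alone.

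The next comparisons asked whether members differ between each line and WT. With NaCl, 0 of 62 members tested were called between AtC3H3 OX and WT (limma, 2 libraries against 2), against 1.3% of all genes higher and 1.37% lower. Without adjustment, 4 members had a higher and 4 a lower level at p under 0.05, as did 1858 and 1754 of all 19642 genes. The smallest adjusted p was that of MYB16 (0.051), which had 9.21 and 8.53 FPKM in AtC3H3 OX, against 6.22 and 5.78 FPKM in WT (log2 fold change 0.50, SE 0.0895). MYB16 was called with a pseudocount of 0.1, and MYB16 and MYB3 were called in 1 fit with 7 group means. MYB96 did not differ beyond its error, with a log2 fold change of 0.05 (95% interval -0.07 to 0.17), and MYB74 likewise with -0.04 (95% interval -0.19 to 0.11).

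Between AtC3H26 OX and WT with NaCl, 5 of 61 members tested were called, 1 higher and 4 lower, against 2.55% and 4.54% of all genes. MYB73 was lower in AtC3H26 OX (values given above), with a log2 fold change of -0.64 (SE 0.0812, adjusted p = 0.014 by limma). MYB15 had 12.52 and 10.96 FPKM in AtC3H26 OX, against 18.8 and 18.7 FPKM in WT (log2 fold change -0.63, SE 0.0790, adjusted p = 0.014). MYB96 had 45.6 and 48.2 FPKM in AtC3H26 OX, against 63.5 and 59.8 FPKM in WT (log2 fold change -0.39, SE 0.0539, adjusted p = 0.018). MYB74 had 15.3 and 13.8 FPKM in AtC3H26 OX, against 20.6 and 19.9 FPKM in WT (log2 fold change -0.45, SE 0.0717, adjusted p = 0.026). These 4 are among the genes that NaCl raised in this line. MYB95 (AT1G74430) was higher, with 8.85 and 8.69 FPKM in AtC3H26 OX, against 6.02 and 5.86 FPKM in WT (log2 fold change 0.49, SE 0.0771, adjusted p = 0.024), and it overlaps 2 other annotated genes. All 5 calls were lost without either of the WT libraries with NaCl, with the same signs and adjusted p of 0.12 to 0.18. Of the wax genes, 8 of 9 tested were lower in AtC3H26 OX, with a median log2 fold change of -0.27. These calls too rest on both WT libraries with NaCl. Leaving out either of them removed nearly all calls of lower genes in this comparison. The summed salt and abscisic acid markers were also lower, at 2491 and 2429 FPKM in AtC3H26 OX, against 3179 and 3303 FPKM in WT. The part of these marker levels in the member values was not tested.

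Untreated, 0 of 54 members were called between AtC3H3 OX and WT, against 0.0199% of all genes called higher and 0.0249% lower. Before adjustment, 3 members were higher and 2 lower at p under 0.05, as were 662 and 1370 of all 20056 genes. Between untreated AtC3H26 OX and WT, 0 of 58 were called, against 0.828% of all genes called higher and 0.823% lower. Here 6 members were higher and 2 lower at p under 0.05 before adjustment, as were 1244 and 1914 of all 20174 genes. These counts took both sets of untreated WT together, and they changed with the set. Against set 1 alone, AtC3H3 OX differed in 1 member (MYB3, higher by 0.30 on the log2 scale), where 0.864% of all genes were higher and 1.6% lower. Against set 2 alone it differed in 15, 10 higher and 5 lower (8.46% and 5.87% of all genes). Among them MYB77 (2.34), MYB96 (1.64) and MYB73 (1.49) were higher in AtC3H3 OX. AtC3H26 OX differed in 6 members against either set, 1 higher and 5 lower against set 1 (3.6% and 8.62% of all genes) and 5 higher and 1 lower against set 2 (5.07% and 4.5%). Against set 1 alone MYB77 (-1.81), MYB73 (-1.69) and MYB96 (-0.61) were lower in AtC3H26 OX, and against set 2 alone MYB96 was higher (0.90). The labels do not say which set was grown with which line.

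The 2 sets of untreated WT, which carry the same genotype and treatment in the labels, differed in 13 of 52 members tested. With set 2 over set 1, 4 were higher and 9 lower, against 2.81% and 7.32% of all genes (limma, 2 libraries against 2). MYB77 (log2 fold change -2.47, SE 0.165), MYB73 (-1.71, SE 0.0761) and MYB96 (-1.51, SE 0.0807) had the largest differences, with adjusted p of 0.0005, 0.0001 and 0.00021. MYB96 had 6.51 and 6.63 FPKM in set 2, against 20.2 and 20.9 FPKM in set 1. MYB6, MYB30, MYB20, MYB70, MYB16 and MYB55 were also lower in set 2, by 0.52 to 0.85 on the log2 scale. MYB112, MYB305, MYB48 and MYB7 were higher in set 2 (log2 fold changes 0.93, 0.76, 0.51 and 0.46). The number called was 6 and 8 without replicate 1 or replicate 2 of set 1. Over all genes the split of 556 higher and 1449 lower became 893 and 1158 with quantile normalization, and that of the members 4 and 7. Of the 13, 8 were also called between NaCl and untreated seedlings (MYB7, MYB16, MYB48, MYB55, MYB70, MYB96, MYB112 and MYB305), each with the same sign over all lines against either set alone. In that comparison 34.4% of all genes were called higher and 35.2% lower, so that 8 of 13 is not more than among all genes.

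The last comparisons tested whether the NaCl response differs between each line and WT, as an interaction of line and NaCl over 10 libraries. For AtC3H3 OX, 0 of 67 members were called, against 0.0385% of all genes called in each direction. Before adjustment, 1 member was higher and 1 lower at p under 0.05, and the share of all genes at that threshold is not given here. For AtC3H26 OX, 1 of 70 was called, against 0.671% of all genes higher and 0.752% lower. This was MYB15, whose log2 fold change by NaCl was 2.44 in AtC3H26 OX (SE 0.109) and 4.05 in WT (SE 0.185). The difference was -1.61 (SE 0.247, adjusted p = 0.019 by limma). In the values above, AtC3H26 OX had both the lowest levels with NaCl and the highest levels untreated, and WT had the highest levels with NaCl. The call was lost with a pseudocount of 0.1 (adjusted p = 0.14) and without any 1 of the 6 libraries of AtC3H26 OX or of WT with NaCl (adjusted p of 0.084 to 0.11). Over its 18 alternatives the adjusted p was between 0.00033 and 0.14, and the sign was negative in each. MYB15 in AtC3H3 OX lay between, with a log2 fold change of 3.29 (SE 0.114) and an interaction of -0.77 that did not pass the test (adjusted p = 0.35). For MYB96 the interval of the interaction was -2.07 to 1.01 in AtC3H26 OX, and for MYB77 -2.62 to 2.46. With 1 set of untreated WT alone, the interaction with AtC3H26 OX was called in opposite directions for both MYB73 (1.04 with set 1 and -0.67 with set 2) and MYB77 (1.15 with set 1 and -1.32 with set 2).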

How the data were processed

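RNA of whole seedlings was sequenced in 14 libraries with a directional kit. According to the methods and the submitters' processing notes, the authors trimmed reads, aligned them to TAIR10 with TopHat and computed FPKM values with Cufflinks, and these FPKM values are the deposited unit. The methods name quantile normalization, which the values do not show. The strand setting of the counting is not given in the sources used here. No counts were used, so depth over all 14 libraries is known only in relative terms (0.638 to 1.07), and at low FPKM the precision is limited. The paper gives read numbers for the NaCl libraries of AtC3H3 OX and WT only. The 218 rows without a gene name entered the tests where they passed the FPKM minimum. Groups were taken from the labels, and replicates measure the spread between libraries, which the methods call biological.

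Values were analysed as log2(FPKM + 1) with limma 3.58.1 in R 4.3.3 (moderated test with a mean trend), on genes reaching 1 FPKM in 2 or more libraries of a comparison, with Benjamini-Hochberg adjustment over all genes tested and a threshold of 0.05. A fold change on this scale understates the change of low genes. In all, 11 comparisons were made. The main fits had no replicate block. The procedure was tested on simulated data in which the untreated WT sets did not differ. That test therefore cannot show how calls behave under the differences between these sets given above. Alternatives were a pseudocount of 0.1, no filter, quantile normalization, a common upper quartile, a replicate block, 1 fit with 7 group means, each untreated WT set alone, and leaving out each replicate.

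The members and gene lists were chosen with earlier results of these data known. Named by rule were up to 10 members per direction with the largest called NaCl change, up to 5 per direction called in each line comparison and interaction, up to 3 per direction between the WT sets, all members of subgroups 1, 2, 7, 11, 18, 20 and 22, and the 5 of highest mean FPKM. Other members were named, after their values were seen, with their subgroup or role. Gene names were matched to RefSeq (TAIR10.1) for names only. The result of 1 gene list is not reported here.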

Additional observations from a re-analysis of the deposited data

Results flagged for a closer look

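MYB13 in replicate 2 of untreated WT set 1 (8.92 FPKM) lay apart from the other 3 untreated WT libraries, with a gap to the nearest of 0.908 of the whole range, above Dixon's critical value for 4 libraries. MYB94 in the same library (6.44 FPKM) lay apart in the other direction, with a gap of 0.842 of the range. Among the 35 members examined in this way, chance alone flags about 1 in 20.

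The NaCl response of MYB15 differed between AtC3H26 OX and WT by -1.61 on the log2 scale in the test of the interaction. The same test was lost with a pseudocount of 0.1, as given above, and its cause was not tested.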

How the results depend on the processing

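Each member named by the rule was refitted in its own comparison under each alternative. Of these refits, 825 kept their direction and their side of the threshold, 31 lost the threshold, 18 gained it and 0 changed sign. Refits of a member share most libraries, and many members were named for a large called change in the same comparison. The counts do not cover the sign changes with the untreated WT set given above, of MYB6, MYB30, MYB73 and MYB77 in WT and of the interactions of MYB73 and MYB77. The number of members called moved by over 1.5 times as follows. Between AtC3H3 OX and WT with NaCl it was 1 with a pseudocount of 0.1 and 2 with 1 fit of 7 group means, in place of 0. Between AtC3H26 OX and WT with NaCl it was 3 with no filter on low values, in place of 5. Untreated, with set 1 alone, set 2 alone and 1 fit it was 1, 15 and 11 for AtC3H3 OX and 6, 6 and 8 for AtC3H26 OX, in place of 0. Between the WT sets it was 7 with no filter, in place of 13. For the interaction of AtC3H3 OX it was 12 with set 2 alone and 5 with 1 fit, in place of 0. For that of AtC3H26 OX it was 0 with a pseudocount of 0.1, 2 with no filter, 5 with 1 fit, 5 with set 1 alone and 9 with set 2 alone, in place of 1. The cause of these shifts was not tested. Without 1 replicate, 52 to 55 members were called over all lines, 25 to 40 in AtC3H3 OX, 24 to 30 in AtC3H26 OX and 16 to 38 in WT. Likewise 0 to 8 were called between AtC3H26 OX and WT with NaCl, 6 to 12 between the WT sets and 0 to 2 for the interaction of AtC3H26 OX. Where leaving out a library left 1 in a group, its spread was assumed to be that of the others. Replicate numbers did not pair the samples (r of deviations -0.131 to 0.095 over 21 pairs of groups and 14263 genes). With a replicate block, 54 members were called over all lines, 41 in AtC3H3 OX, 38 in AtC3H26 OX and 34 in WT, and the other counts did not change. With FPKM only, differences of members near or below 1 FPKM are limited by depth.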
